A study of Mus musculus with 56 samples.

Results

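The 50 mRNAs described here are well-known targets of FMRP, the RNA-binding protein encoded by Fmr1. They were taken as a list of gene names, out of 23259 genes listed over all gene tables of the study. No measured level was used as a rule to pick them, but they were chosen with earlier results of these data known. The mice were wild type (WT) or Fmr1 knockout (KO), and each genotype gave 3 libraries from each of 3 brain regions (cortex, hippocampus and cerebellum) and from testis, muscle and liver. Cells of the mouse neuroblastoma line N2a had received small interfering RNA against Fmr1 (siFmr1, 3 libraries) or a non-targeting control (siNT, 2 libraries). N2a cells were also co-transfected with siRNA and a plasmid, in 5 groups of 3 libraries. These were siNT with the empty plasmid (siNT pcDNA), siFmr1 with the empty plasmid (siFmr1 pcDNA), siFmr1 with nuclear MBNL1 (siFmr1 nMBNL1), siMbnl1 with the empty plasmid (siMbnl1 pcDNA) and siMbnl1 with cytosolic MBNL1 (siMbnl1 cMBNL1). MBNL1 is a regulator of alternative splicing. The KO allele and the strain, sex and age of the mice are not stated in the labels, and neither is whether the 3 brain regions came from the same animals. The p-values below therefore measure the spread between these libraries.

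FMRP is missing in fragile X syndrome. In neurons it travels with messenger RNA and polyribosomes, and it is best known for holding back the translation of long mRNAs whose products build the synapse. RNA sequencing reads the amount of each target mRNA and says nothing of how much protein is made from it.

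The members were ordered by what their products do. There were 7 microtubule and ankyrin cytoskeleton genes, 8 postsynaptic scaffolds, 7 receptors and adhesion proteins, 6 channels and pumps, 7 kinases and adenylyl cyclases, 6 regulators of GTPases, mTOR and actin, 2 active zone proteins, 3 motors, and a last group of 3 ubiquitin ligases with the transcriptional repressor Spen. As a group they had long coding sequences, from 1467 to 15200 bases with a median of 5252, against a median of 1434 over 14058 brain-expressed genes with a coding transcript. Their median GC content, taken over the whole transcript with its untranslated parts, was 53.7%, against 50.7%. The 4-base words TGGA and AGGA, often listed as FMRP recognition motifs, came at a median of 15.4 per kilobase of coding sequence in the members and 16.3 over all these genes. ACTT and ACTG, another described pair, came at 7.59 and 8.27 per kilobase. Words were counted on the coding strand, and overlapping words were possible.

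The brain count table held all 50 members. Its 18 libraries had 26264368 to 41384652 counts each. Fmr1 itself was lower in every KO brain library. In cortex it stood at 120.9, 130 and 120.5 CPM, counts scaled to library size, in WT and at 28.02, 34.5 and 32.44 in KO. It stood at 86.05 to 95.12 CPM in WT and 24.07 to 24.61 in KO hippocampus, and at 99.76 to 119.4 and 29.97 to 31.52 in cerebellum. The neuronal marker list (Rbfox3, Snap25, Syt1, Tubb3, Stmn2, Eno2, Slc17a7, Gad1 and Gad2) summed to between 6610 and 10100 CPM in every brain group. Liver, muscle and testis each carried their own marker genes (Alb and Apoa1, Acta1 and Ckm, Prm1, Prm2 and Tnp1) at sums of at least 8190 CPM.

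In WT brain the members spanned a wide range of levels. On the scale of deposited TPM (a transcript's share of its library), which is corrected for length, the mean over the 9 WT brain libraries ran from 20.23 for Nav2, a neuron navigator of the growing cytoskeleton, to 1866 for App, the amyloid precursor protein. The median member stood at 129.6 TPM. By WT mean, 20 members were highest in cerebellum, 17 in hippocampus and 13 in cortex. The most abundant member of each role, ranked by mean CPM per kilobase of transcript over all 18 WT and KO libraries, was Map1b among cytoskeleton genes (by TPM it was Map2), Dlg4 (the main postsynaptic density scaffold), App, Itpr1 (the inositol trisphosphate receptor of the endoplasmic reticulum), Camk2a (the alpha subunit of calcium/calmodulin kinase II), Cyfip2 (a WAVE complex subunit), Bsn (bassoon, of the presynaptic active zone), Kif5a (a kinesin) and Huwe1 (a ubiquitin ligase).

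**Figure D1:**
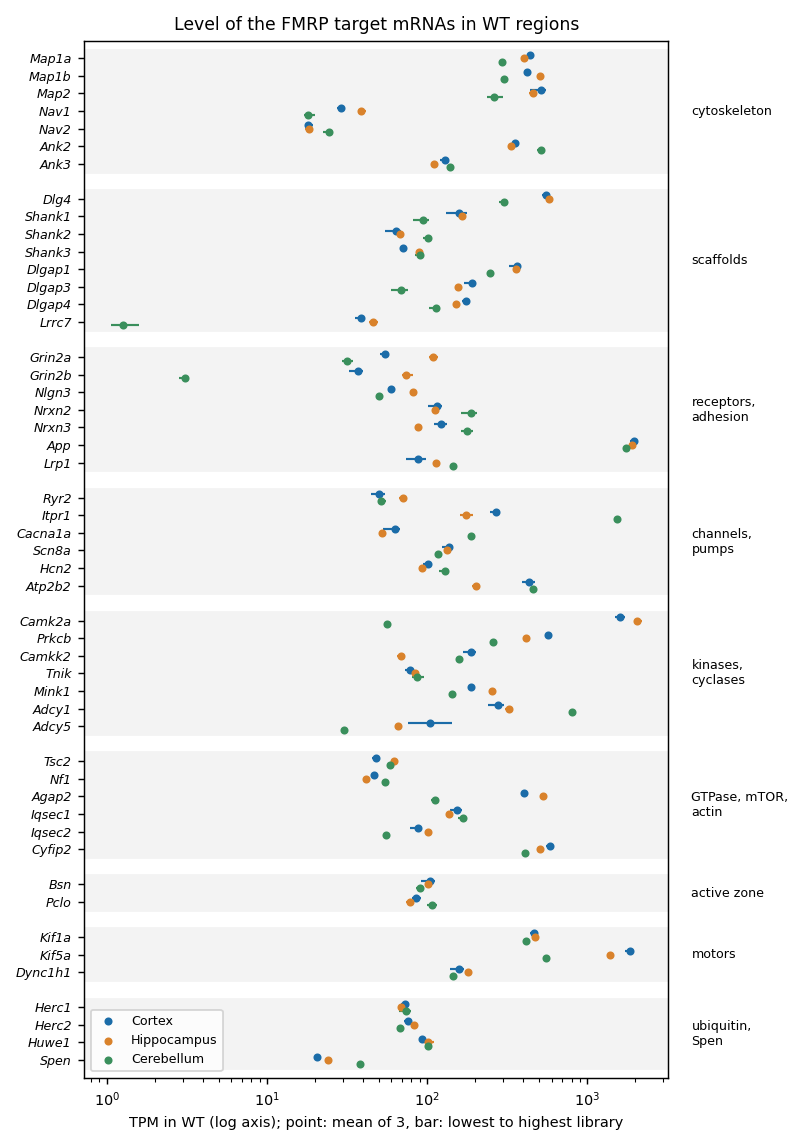
Level of each of the 50 FMRP target mRNAs in WT brain, in TPM on a log axis, with the mean of 3 libraries as a point and the lowest and highest library as a bar. Rows are grouped by role. Lrrc7, Grin2b, Camk2a and Itpr1 show the widest spacing between cerebellum and the other regions.

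Between WT regions the differences were large for many members. Tested with edgeR's quasi-likelihood test and called at a Benjamini-Hochberg adjusted p under 0.05, 17 members were higher and 14 lower in WT hippocampus than in WT cortex, out of 50 tested. Over all 15504 genes tested, 23.3% were called higher and 24.2% lower. In WT cerebellum against WT cortex, 14 members were higher and 28 lower, against 35.6% higher and 34.4% lower over all genes. Of the 8 postsynaptic scaffolds, 6 were lower in cerebellum than in cortex and 2 higher.

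Camk2a stood at 1616, 1733 and 1489 TPM in WT cortex, at 1954, 2188 and 2035 in hippocampus and at 56.79, 57.35 and 53.69 in cerebellum. The 3 regions did not overlap, and cerebellum was lower than cortex by a log2 fold change of -4.96 ± 0.10 (standard error, SE). Lrrc7, a postsynaptic scaffold that binds this kinase, stood at 35.64 to 40.37 TPM in WT cortex and 1.06 to 1.6 in WT cerebellum. That is a log2 fold change of -5.00 ± 0.10. Grin2b, an NMDA receptor subunit, was also lower in cerebellum than in cortex, with 2.84 to 3.24 against 32.67 to 39.77 TPM. Itpr1 went the other way, at 1495, 1597 and 1521 TPM in WT cerebellum and 246, 285.5 and 277.4 in WT cortex. This log2 fold change was 2.40 ± 0.09. The 4 widest called differences between WT hippocampus and WT cortex were in Camkk2, a kinase upstream of AMPK, Atp2b2, a calcium pump of the plasma membrane, Grin2a and Grin2b. Camkk2 stood at 190.5, 203.5 and 167 TPM in cortex and at 72.37, 65.11 and 68.15 in hippocampus, a log2 fold change of -1.45 ± 0.09. Grin2a stood at 50.94 to 56.52 TPM in cortex and 102.2 to 116.8 in hippocampus, a log2 fold change of 1.01 ± 0.08.

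In cortex, KO against WT, most members were somewhat lower in the KO libraries, but none passed the adjusted threshold with edgeR. All 50 members were tested, 41 had a negative log2 fold change and 9 a positive one. None was called in either direction, and over all 14802 genes tested 0.0203% were called lower and 0% higher. At an unadjusted p under 0.05, 24 members were lower and 4 higher. Over all genes tested these shares were 10.7% lower and 10.3% higher. The KO and WT libraries did not overlap in 16 members with KO lower and 2 with KO higher, where all genes gave 12.4% and 13.3%. Since these are bulk samples, fewer cells of a type and less RNA per cell cannot be told apart.

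The members' median log2 fold change in cortex was -0.15, with -0.0016 over all genes tested. For genes of similar expression the median was also near 0. The 2344 tested genes within the 10th to 90th percentile of the members' expression had a median of 0.01. The 2887 genes within the same percentiles of coding length had -0.02, and the 9155 genes of similar GC content had -0.05. In the 459 genes inside all 3 ranges the median was -0.08. Of those 459 genes, 333 had a negative log2 fold change, 146 were lower at an unadjusted p under 0.05 and 21 higher. Across the members the cortex log2 fold change and GC content had a Spearman correlation of -0.67 (n = 50). Across all genes with a coding transcript it was -0.51 (n = 13661). These values come from the same 6 libraries, and the part of GC content in the members' change was not tested. The KO cortex libraries were also the deeper ones, with 30719096 to 32574819 counts against 26264368 to 27786362 in WT. Neuron markers were 4 of 9 lower in KO cortex at an unadjusted p under 0.05, with summed levels of 8610 to 9770 CPM in KO and 9270 to 10100 in WT. Endothelium markers (Cldn5, Pecam1, Flt1 and Vwf) summed to 127 to 135 CPM in KO and 136 to 157 in WT. Hbb-bs of red cells stood at 56.8 to 57.8 CPM in KO and 63.8 to 81.4 in WT. The sums of all other marker lists overlapped between genotypes in cortex. The part of these markers in the result was not tested.

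**Figure D2:**
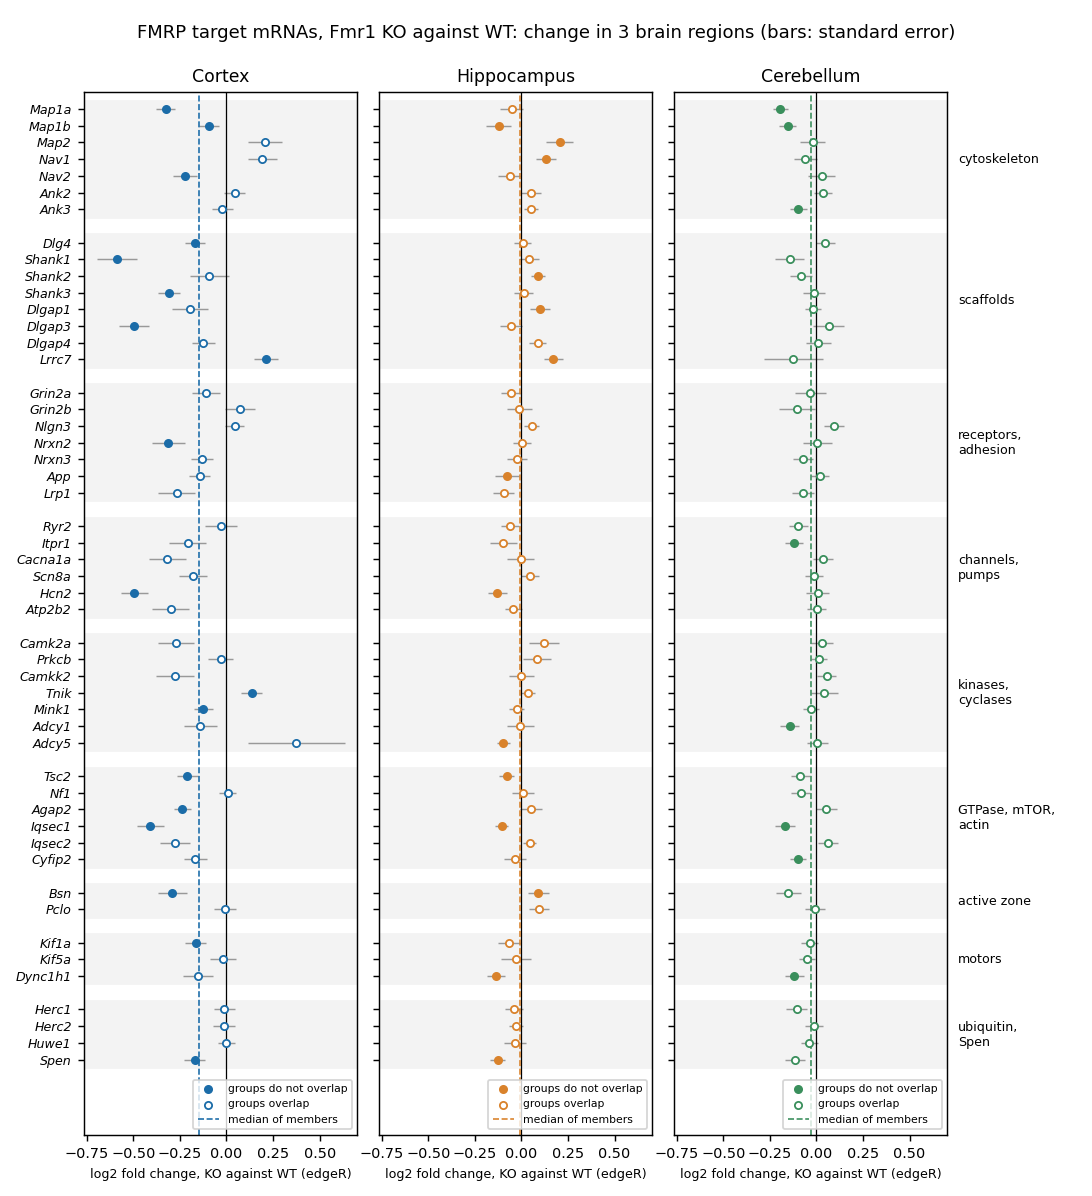
Log2 fold change of each member, KO against WT, in cortex, hippocampus and cerebellum (edgeR), with the standard error as a bar and the median of the members as a dashed line. Filled points are members whose 3 KO and 3 WT libraries do not overlap. The dashed line is farthest from 0 in cortex, at -0.15.

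The members of smallest p in cortex were Hcn2, Map1a and Dlgap3. Hcn2, a pacemaker channel opened by hyperpolarization, stood at 125.1, 120.5 and 109.8 CPM in WT and at 91.13, 80.13 and 80.88 in KO. Its log2 fold change was -0.49 ± 0.07, with an edgeR adjusted p of 0.0668. Map1a, a microtubule-associated protein of mature neurons, stood at 1956, 2058 and 1940 CPM in WT and at 1553, 1576 and 1619 in KO. The log2 fold change of -0.33 ± 0.05 had the same adjusted p. Dlgap3, a scaffold between postsynaptic density proteins and Shank proteins, stood at 299.3, 293.8 and 247.8 CPM in WT and at 206.1, 184.2 and 206.1 in KO, with a log2 fold change of -0.49 ± 0.08. In each of these 3 genes every KO library was below every WT library.

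By role in cortex, the counts were as follows. Among the 6 regulators of GTPases, mTOR and actin, 5 were lower at an unadjusted p under 0.05 and none higher, with a median log2 fold change of -0.22. Iqsec1 and Iqsec2 (exchange factors for ARF GTPases), Agap2 (an ARF GTPase-activating protein), Tsc2 (tuberin, which restrains mTOR) and Cyfip2 were those 5, and Nf1 (neurofibromin) was at 0.01. Among the 6 channels and pumps 4 were lower at that threshold, with a median of -0.25. Among the 8 scaffolds 4 were lower, among them Shank1 and Shank3. Lrrc7 was higher at that threshold. Cytoskeleton genes split, with 2 of 7 lower (Map1a and Nav2) and 2 higher (Map2 and Nav1). Map2, the dendritic microtubule-associated protein, stood at 921.3, 1117 and 1142 CPM in WT and 1136, 1301 and 1232 in KO, and these ranges overlap. The 4 members of the group of ubiquitin ligases and Spen had a median of -0.01, and only Spen was lower at an unadjusted p under 0.05.

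How many members were called in cortex depended on the library WT 3 and on the test. Without WT 3 edgeR called 14 members, all lower, where 4.18% of all genes were called lower. DESeq2's Wald test on all 6 libraries also called 14 lower, against 4.5% of genes with an adjusted p. A fit of all 18 brain libraries, which shares one estimate of the spread, called 16 lower, against 4.62%. In the authors' deposited table of cortex log2 fold changes, 24 members were called lower and 1 (Lrrc7) higher, and 12.7% of all genes with an adjusted p there were called. A set of 12 members was called lower under all 4 of these: Agap2, Bsn, Cacna1a, Dlgap3, Hcn2, Iqsec1, Iqsec2, Map1a, Nrxn2, Shank1, Shank3 and Tsc2. They are named after their values were seen. Cacna1a encodes the pore of a presynaptic calcium channel and Nrxn2 a presynaptic adhesion molecule. Shank1 stood at 497.7, 523.7 and 381.2 CPM in WT and 294.8, 304.3 and 332.6 in KO, with a log2 fold change of -0.59 ± 0.11.

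The members' median level in each cortex library was also taken. With each gene centred on its mean over the 6 cortex libraries, the median member stood at 0.12 and 0.13 log2 units in WT 1 and WT 2 and at -0.11 and -0.09 in KO 1 and KO 2. WT 3 and KO 3 lay between them, at -0.02 and -0.01. These last 2 values lie inside the SD between replicates. That SD was 0.07. Genes in the members' expression range stayed within -0.02 and 0.03 in all 6 cortex libraries. Genes in the members' GC range stood at 0.05, 0.02 and -0.0024 in the WT libraries and at -0.03, -0.02 and -0.02 in the KO libraries, so their genotypes did not overlap. Genes in the coding length range did not overlap either. They stood at 0.0063, 0.0269 and 0.0021 in WT and at -0.0194, -0.0075 and -0.0069 in KO.

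**Figure D3:**
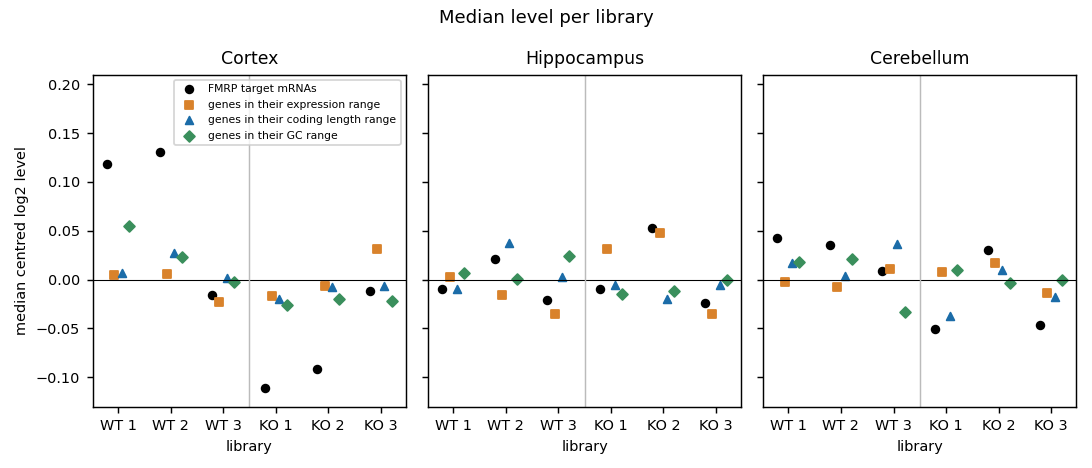
Median centred log2 level per library for the FMRP target mRNAs and for genes in their expression, coding length and GC ranges, in each brain region. In cortex the members stand at 0.12 and 0.13 in WT 1 and WT 2 and at -0.11 and -0.09 in KO 1 and KO 2, with WT 3 and KO 3 near 0.

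In hippocampus members lay on both sides of 0. With edgeR none of the 50 tested was called, with 0.195% of all 14843 genes called lower and 0.0135% higher. At an unadjusted p under 0.05, 5 members were lower (Spen, Iqsec1, Dync1h1, Adcy5 and Hcn2) and 4 higher (Lrrc7, Map2, Nav1 and Shank2), and all genes gave 6.12% and 6.36%. Libraries did not overlap in 8 members with KO lower and 6 with KO higher, where all genes gave 9.26% and 9.81%. The median log2 fold change of the members was -0.01, and without KO 2 it was -0.05. Lrrc7 was the member of smallest p, at 123, 138 and 127.8 CPM in WT and 146.9, 149.1 and 141.9 in KO. Its log2 fold change of 0.17 ± 0.05 had an edgeR adjusted p of 0.266. Lrrc7 was also non-overlapping and higher in KO cortex. Spen stood at 114.4, 116 and 117 CPM in WT and 103.4, 106.1 and 108.5 in KO, with a log2 fold change of -0.13 ± 0.04. Iqsec1 stood at 297.5 to 303.4 CPM in WT and 276.5 to 285.2 in KO. DESeq2's Wald test called Map2 higher and Dync1h1 lower, against 0.958% of genes higher and 1.25% lower. The authors' deposited table called no member in hippocampus, with 1.32% of its genes called. Oligodendrocyte markers (Mbp, Mog, Mobp and Mag) were lower in KO hippocampus in 4 of 4 at an unadjusted p under 0.05 and 2 were called. Their sum was 2500 to 2610 CPM in KO and 3020 to 3270 in WT. Their part in the members' values was not tested.

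In cerebellum, members with an unadjusted p under 0.05 were lower in KO. With edgeR none of 50 was called, against 0.198% of 14627 genes lower and 0.0273% higher. At an unadjusted p under 0.05, 9 members were lower and none higher, and all genes gave 4.95% lower and 3.77% higher. Libraries did not overlap in 8 members with KO lower and in none with KO higher, against 7.86% and 6.7%. The members' median log2 fold change was -0.03, with 0.00 over all genes and -0.02 in genes inside their 3 ranges. Map1a stood at 1237, 1228 and 1248 CPM in WT and 1077, 1091 and 1064 in KO, a log2 fold change of -0.19 ± 0.04 with an edgeR adjusted p of 0.115. Map1b, a microtubule-associated protein long studied as an FMRP target, stood at 1312, 1254 and 1359 CPM in WT and 1140, 1197 and 1174 in KO, a log2 fold change of -0.15 ± 0.05. Iqsec1 stood at 391.4, 379 and 341.9 CPM in WT and 335.1, 328 and 322.4 in KO. In all 3 genes the KO libraries lay below the WT libraries. Without WT 3 edgeR called 3 members lower, namely Map1a, Iqsec1 and Shank1, against 1.08% of all genes. DESeq2's Wald test on all 6 libraries called Map1a lower, against 0.558%. The authors' deposited table called 1 member, Map1a, lower in cerebellum, with 0.313% of its genes called. Choroid plexus markers (Ttr, Folr1 and Kl) were lower in KO cerebellum in 3 of 3 at an unadjusted p under 0.05, at sums of 351 to 961 CPM in KO and 882 to 1320 in WT, and their part was not tested.

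Across regions, 19 members had a negative log2 fold change in all 3, 15 in 2, 13 in 1 and 3 in none. Map1b and Iqsec1 were the 2 members whose KO libraries lay below all WT libraries in each of the 3 regions. Whether the genotype effect differed between regions was tested as an interaction with edgeR, and no member was called in any of the 3 tests. At an unadjusted p under 0.05 the effect was more negative in cortex than in hippocampus for 18 members and less negative for none, where all 15504 genes gave 6.04% and 4.02%. Against cerebellum it was more negative in cortex for 16 members and less for 2 (Lrrc7 and Nav1), where all genes gave 7.73% and 7.42%. Between hippocampus and cerebellum 4 members (Ank3, Map1a, Bsn and Lrrc7) had a higher effect in hippocampus and none a lower one, where all genes gave 2.64% and 2.67%. The Hcn2 effect was lower in cortex than in cerebellum by 0.50 ± 0.09 log2 units, with an edgeR adjusted p of 0.089. Without the cortex library WT 3, 7 members were called with a more negative effect in cortex than in hippocampus, against 0.82% of all genes, and 7 against cerebellum, against 1.99%. Both tests use the same 6 cortex libraries.

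With a common genotype effect fitted over all 18 brain libraries and region as a term, 6 members were called and all 6 were lower in KO. Of 15295 genes tested, 1.86% were called lower and 1.67% higher. At an unadjusted p under 0.05, 20 members were lower and 3 higher, where all genes gave 10.5% and 10.7%. The members' median log2 fold change was -0.06, with -0.0047 over all genes tested and -0.05 in the 441 genes inside their expression, length and GC ranges.

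Map1a fell, with a log2 fold change of -0.19 ± 0.03 (edgeR adjusted p = 0.00602). Its KO libraries were below its WT libraries in cortex and cerebellum, and in hippocampus they overlapped, at 1779, 1806 and 1688 CPM against 1821, 1867 and 1779. Iqsec1 had the lowest fitted value of the 6, -0.23 ± 0.05 (adjusted p = 0.0125), and its cortex difference was the widest of the 3 regions. Map1b fell, at -0.13 ± 0.03 (adjusted p = 0.0193). Its levels were 1905, 2018 and 1973 CPM in WT cortex against 1832, 1889 and 1798 in KO, and 2328, 2421 and 2305 in WT hippocampus against 2235, 2206 and 2042 in KO. Spen fell, at -0.14 ± 0.03 (adjusted p = 0.0108). Its lowest WT library was above its highest KO library in cortex and hippocampus, and in cerebellum the ranges of 165.2 to 179.2 and 148.2 to 166 CPM overlapped.

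Tsc2 fell, at -0.13 ± 0.03 (adjusted p = 0.029), with 119.3, 117.7 and 107.2 CPM in WT cortex and 98.06, 98.49 and 101 in KO. Dync1h1, the heavy chain of cytoplasmic dynein, fell, at -0.14 ± 0.04 (adjusted p = 0.0418). In hippocampus it stood at 1037, 1029 and 1005 CPM in WT and 925.2, 944.3 and 925.2 in KO. In cortex the WT library 3, at 783.1 CPM, lay below all KO libraries. Map1a, Map1b, Iqsec1 and Spen stayed called in all 22 alternatives tried. Dync1h1 lost its call in 15 of them, all with 1 library left out, and Tsc2 in 5. Without the cerebellum library WT 3, 13 members were called, 11 lower and 2 higher, where all genes gave 4.66% and 6.58%.

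**Figure D4:**
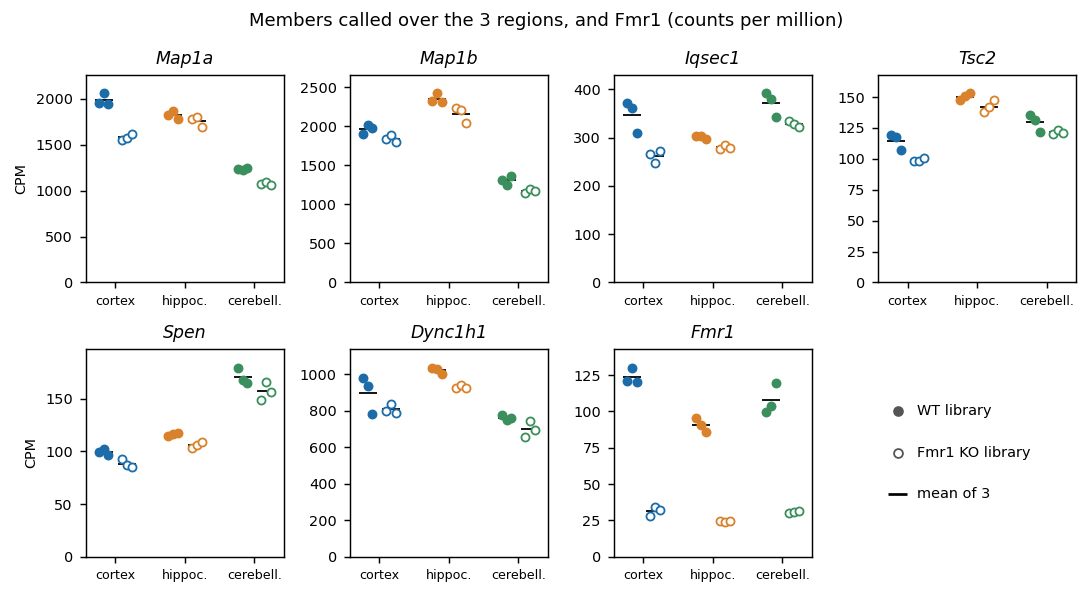
CPM of the 6 members called over the 3 regions, and of Fmr1, in each library (filled: WT, open: KO), with the mean of 3 as a line. KO points of Map1b and Iqsec1 lie below all WT points in each region, while those of Map1a overlap in hippocampus.

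For other genes of the pathway the same fit gave few calls. Of 12 further mRNAs described as FMRP targets or controlled by FMRP (Arc, Ptpn5, Mmp9, Pik3cb, Dgkk, Kcnc1, Kcnd2, Gria1, Grm5, Sod1, Gabrd and Bmpr2), 1 was called higher and none lower over the 3 regions. That gene was Kcnd2, a potassium channel, at 0.12 ± 0.03. Of 6 genes of the FMRP family and its partners, Fmr1 was called lower and Caprin1, an RNA granule protein that binds FMRP, was called higher, at 0.11 ± 0.03.

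Outside the brain fewer members were listed, and edgeR called members in muscle and testis but not in liver. Liver listed 36 members, of which 34 passed the filter on low counts and none was called with edgeR, with 0.243% of 11928 genes called lower and 0.168% higher. Nav2 stood at 30.58, 44.08 and 42.7 CPM in WT liver and 18.16, 23.31 and 24.07 in KO, with no overlap and a log2 fold change of -0.84 ± 0.18 (edgeR adjusted p = 0.106). DESeq2's Wald test called it lower, against 1.42% of genes, and so did edgeR without WT 1. It was also the 1 member called in the authors' deposited table for liver, where 2.06% of genes were called. Muscle listed 38 members, 36 were tested, and 4 were called higher and none lower, against 3% higher and 1.03% lower of 12688 genes. Camkk2 stood at 5.816, 6.98 and 8.506 CPM in WT muscle and 12.26, 11.57 and 12.36 in KO, a log2 fold change of 0.76 ± 0.16 (edgeR adjusted p = 0.0373). Shank3 stood at 17.81, 21.09 and 27.04 CPM in WT and 36.72, 33.92 and 35.88 in KO. Lrp1, a large endocytic receptor, stood at 99.67, 121.5 and 124.1 CPM in WT and 186.5, 162 and 199.2 in KO. Spen stood at 29.44, 36.63 and 32.35 CPM in WT and 42.75, 45.06 and 48.37 in KO. In these 4 genes all KO libraries were above all WT libraries. Leaving out single muscle libraries left none of these 4 called (without KO 1 or KO 3), Lrp1 alone (KO 2), Lrp1 and Shank3 (WT 1), Lrp1 and Spen (WT 2) or all but Spen (WT 3). Without WT 2 Ank2 was called lower in addition. Fmr1 itself did not pass the threshold in muscle with edgeR (adjusted p = 0.0734). It stood at 11.99 to 17.56 CPM in WT and 8.065 to 10.31 in KO, without overlap. Skeletal muscle markers (Acta1 and Ckm) summed to 50900 to 58500 CPM in KO and 64100 to 65800 in WT. Other marker lists were higher in KO muscle without overlap. The macrophage and microglia list (Cx3cr1, P2ry12, Tmem119, Csf1r and C1qa) summed to 81.6 to 85.4 CPM in KO and 43.3 to 52.5 in WT, Pdgfra and Cspg4 to 78 to 88.4 and 46.8 to 56.8, and the 4 listed neuron markers to 6.6 to 7.8 and 3.9 to 6.32. The part of these lists in the members' values was not tested.

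Testis listed 47 members, 46 were tested, and 3 were called lower and none higher, against 2.28% lower and 2% higher of 15465 genes. Shank2 stood at 17.64, 15.45 and 14.77 CPM in WT testis and 9.811, 10.19 and 7.539 in KO, a log2 fold change of -0.80 ± 0.13 (edgeR adjusted p = 0.000114). Camkk2, which was higher in KO muscle, was lower in KO testis, at 41.46, 36.29 and 33.14 CPM in WT and 27.07, 26.3 and 29.13 in KO. Lrp1 overlapped between genotypes, at 46.39 to 59.8 CPM in WT and 40.05 to 48.36 in KO, with a log2 fold change of -0.29 ± 0.08. Lrp1 lost its call without KO 1, KO 2, WT 1 or WT 2 (edgeR adjusted p from 0.104 to 0.234) and with DESeq2's Wald test (adjusted p = 0.0746), and the authors' deposited table did not call it. Without WT 1 Camkk2 was lost as well (adjusted p = 0.0575), which left Shank2. The 5 neuron markers listed in testis summed to 46 to 50.9 CPM in KO and 52 to 63.6 in WT. The 4 listed astrocyte markers summed to 71 to 72.4 and 73.8 to 99.3, and the 2 of choroid plexus to 12.2 to 13.2 and 15.4 to 18.7. The 1 listed liver marker was near 0, at 0.0639 to 0.148 and 0.563 to 1.11. The part of these lists was not tested.

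In the first N2a experiment 39 members were listed and tested, and none was called, with 0% of 12187 genes called lower and 0% higher. No member reached an unadjusted p under 0.05, where all genes gave 0.172% higher and 0.213% lower. The authors' deposited table for this comparison called no member and 0% of its genes. The libraries of each group stood far apart: Fmr1 was at 77.74 and 22.4 CPM in siNT and at 14.68, 14.71 and 2.125 in siFmr1. The members' median log2 fold change was 0.19, with -0.01 over all genes and 0.16 in genes of their coding length. Without siNT 1 the median was 0.49, and without siNT 2 it was 0.05. In 5 members (Map1a, Ank3, Dync1h1, Nav1 and Iqsec1) all siFmr1 libraries were above both siNT libraries and in none were they below, where all genes gave 3.63% and 4.19%. Map1a stood at 184.2 and 180.8 CPM in siNT and 236.5, 273.2 and 266.6 in siFmr1. Its log2 fold change was 0.50 ± 0.26, with an edgeR adjusted p of 0.9999. Ank3, which organizes the axon initial segment, stood at 72.42 and 48.58 CPM in siNT and 72.91, 121.1 and 80.49 in siFmr1. Nrxn3 had 0.7558 to 3.006 CPM in these libraries, and its groups overlapped.

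The co-transfection table gave normalized counts and listed all 50 members. Of these, 45 had a mean of at least 1 over the 15 libraries and were tested with limma on log2(value + 1). Adcy1, Atp2b2, Grin2a, Grin2b and Lrrc7 did not reach that mean. Fmr1 stood at 2819, 3604 and 2856 in siNT pcDNA and at 587.5, 583.4 and 611.8 in siFmr1 pcDNA, so the knockdown was uniform here.

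In siFmr1 pcDNA against siNT pcDNA, 12 members were called higher and 3 lower. Of 16242 genes tested 19.5% were called higher and 17.5% lower. The 2 groups did not overlap in 10 members with siFmr1 higher and 7 with siFmr1 lower, where all genes gave 22.9% and 20.3%. The members' median log2 fold change was 0.18, with 0.03 over all genes tested and 0.01 in the 1423 genes inside their expression, length and GC ranges. Postsynaptic scaffolds had the most calls, with 4 of 7 tested called higher and none lower.

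Kif1a, a kinesin that carries synaptic vesicle precursors, stood at 13.61, 25.91 and 18.83 normalized counts in siNT pcDNA and 79.36, 57.19 and 78.11 in siFmr1 pcDNA. Its log2 fold change was 1.86 ± 0.31 (limma adjusted p = 0.000213). Shank3 stood at 14.59, 25.93 and 10.47 in siNT pcDNA and 43.1, 52.57 and 37.45 in siFmr1 pcDNA, a log2 fold change of 1.41 ± 0.36. Both genes were low in these cells, and their groups did not overlap. Nrxn2 stood at 819.4, 1458 and 1175 normalized counts against 2583, 2584 and 2028, a log2 fold change of 1.09 ± 0.15. Agap2 stood at 447.7, 931.4 and 677 against 1358, 1236 and 1243. Ank3 stood at 1251, 1554 and 1303 against 2116, 2157 and 2159, a log2 fold change of 0.65 ± 0.08 (limma adjusted p = 9.65e-06). Dlg4 stood at 2121, 3016 and 2651 against 3869, 3939 and 3626. In each of these 6 genes every siFmr1 pcDNA library was above every siNT pcDNA library.

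The 3 members called lower were Bsn, Dync1h1 and App. Bsn stood at 280.8, 401.9 and 352.8 normalized counts in siNT pcDNA and 220.1, 244.1 and 194.2 in siFmr1 pcDNA, a log2 fold change of -0.64 ± 0.17. Dync1h1 stood at 6639, 10150 and 8174 against 6147, 6230 and 5748, a log2 fold change of -0.44 ± 0.12. App stood at 18540, 20630 and 22180 against 17310, 18300 and 15560, a log2 fold change of -0.26 ± 0.09, and it lost its call in 4 of 11 alternatives. Dync1h1 lost its call with only the compared groups in the fit (limma adjusted p = 0.0576). In these 3 genes every siFmr1 pcDNA library was below every siNT pcDNA library. The library siNT pcDNA 2 was high for many members, Map1b among them, with 88930 normalized counts against 61590 and 63340 in the other siNT pcDNA libraries. Without it 24 members were called, 21 higher and 3 lower, where all genes gave 20.8% and 19.4%.

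**Figure D5:**
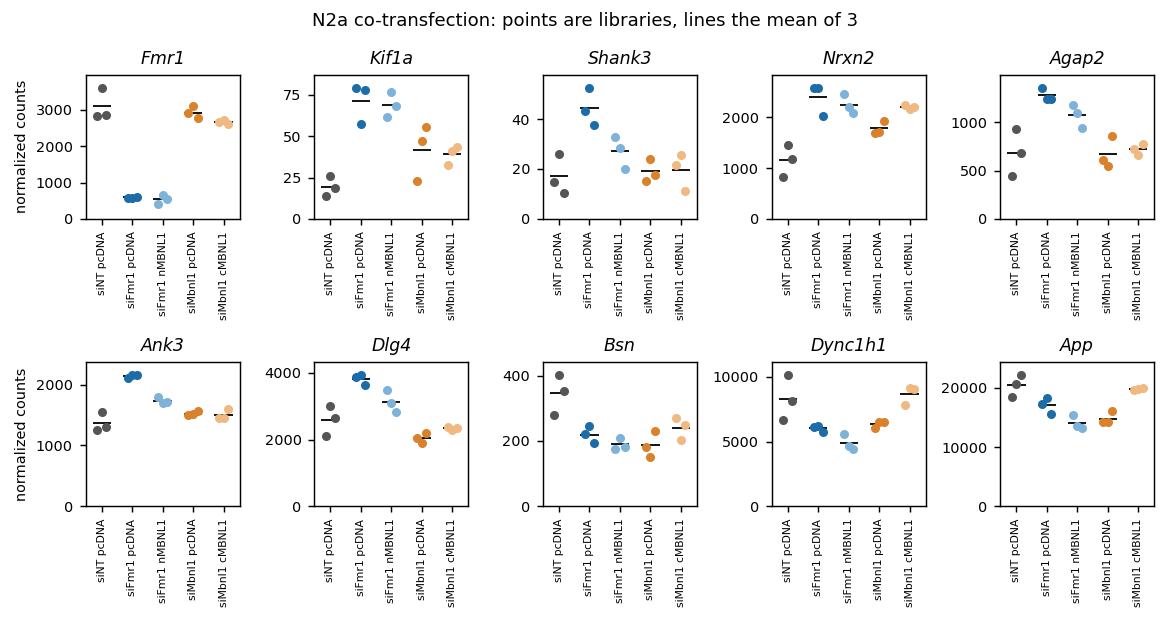
Normalized counts of Fmr1 and of the 9 members named for siFmr1 pcDNA against siNT pcDNA, in every library of the 5 co-transfection groups, with the mean of 3 as a line. Kif1a, Shank3, Nrxn2, Agap2, Ank3 and Dlg4 have all siFmr1 pcDNA points above all siNT pcDNA points, and Bsn, Dync1h1 and App have them below.

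All 15 members called in siFmr1 pcDNA had negative log2 fold changes in KO cortex, where 41 of 50 members were negative. Of these, 12 were called higher in siFmr1 pcDNA, Agap2, Nrxn2, Shank3, Hcn2 and Dlgap3 among them, and 3 (Bsn, Dync1h1 and App) lower. The log2 fold change of Hcn2 was -0.49 in cortex and 0.41 ± 0.10 in siFmr1 pcDNA (limma adjusted p = 0.00351), and that of Dlgap3 was -0.49 and 0.48 ± 0.12 (adjusted p = 0.00607). These are values set side by side from separate experiments, and their difference was not tested.

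The other 3 treated groups were compared with the same siNT pcDNA libraries, so the 4 comparisons share their controls. In siFmr1 nMBNL1, 7 members were called higher and 10 lower, against 21.2% and 19.9% of all genes. In siMbnl1 pcDNA 4 were higher and 11 lower, against 17% and 15.8%. In siMbnl1 cMBNL1 10 were higher and 6 lower, against 17.7% and 16%. Kif1a stood at 61.68, 76.52 and 68.48 normalized counts in siFmr1 nMBNL1, at 22.82, 46.9 and 55.86 in siMbnl1 pcDNA and at 32.46, 41.08 and 43.32 in siMbnl1 cMBNL1. It was called higher in each, and lost its call in 4 of 11 alternatives in both siMbnl1 groups. Nrxn2 stood at 2456, 2207 and 2086 in siFmr1 nMBNL1, at 1701, 1719 and 1935 in siMbnl1 pcDNA and at 2250, 2169 and 2199 in siMbnl1 cMBNL1, above every siNT pcDNA library, and was called in all 4 groups. Bsn had log2 fold changes of -0.64, -0.85, -0.88 and -0.52 in siFmr1 pcDNA, siFmr1 nMBNL1, siMbnl1 pcDNA and siMbnl1 cMBNL1, and was also called in all 4. Ryr2, an intracellular calcium release channel, stood at 412.2, 588.3 and 459.6 normalized counts in siNT pcDNA. It stood at 787.3, 845.2 and 902.7 in siMbnl1 pcDNA and 867.8, 938.8 and 948.2 in siMbnl1 cMBNL1, and at 513.9 to 556.2 in siFmr1 pcDNA, within the siNT range. Lrp1 stood at 363.8, 538.5 and 486.8 in siNT pcDNA, at 236.8, 182.3 and 314.8 in siMbnl1 pcDNA and at 469.6, 458.7 and 441.6 in siFmr1 pcDNA. Nav2, at 0 to 1.997 in siNT pcDNA, stood at 7.885, 12.35 and 10.38 in siMbnl1 cMBNL1 and at 22.63, 3.628 and 0.7691 in siMbnl1 pcDNA.

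Nuclear MBNL1 added to siFmr1 cells was compared with siFmr1 pcDNA directly. Of the 45 members tested 40 had a negative log2 fold change, with a median of -0.19. Over all genes the median was 0.00, in genes of the members' coding length -0.11 and in genes inside their 3 ranges -0.16. Dlgap1 was called higher and Mink1, a kinase of the germinal center kinase family, lower, against 0.634% and 1.13% of all genes. Dlgap1 stood at 0, 6.865 and 0.78 normalized counts in siFmr1 pcDNA and 15.17, 22.72 and 24.92 in siFmr1 nMBNL1, and at 5.045 to 6.325 in siNT pcDNA. Mink1 stood at 5537, 5087 and 4992 in siFmr1 pcDNA and 4222, 4039 and 3813 in siFmr1 nMBNL1, a log2 fold change of -0.37 ± 0.09 (limma adjusted p = 0.0448). With only the 2 compared groups in the fit 21 members were called, 20 lower and 1 higher, where all genes gave 9.23% and 7.99%. Leaving out siFmr1 nMBNL1 2 or 3, or siFmr1 pcDNA 1 or 3, left no call, and without siFmr1 pcDNA 2 there was 1.

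Skipped exons of the members were read from the authors' deposited tables, with the deposited inclusion levels, inclusion differences and false discovery rates (FDR). An exon was counted as called where the FDR was under 0.05 and inclusion differed by 0.1 or more in either direction. Members had 54 called events over the 11 tables, at 33 distinct exons in 23 members. The tables do not name their 2 replicate sets, so direction is certain only in the first N2a experiment. There the set of 3 is siFmr1 and the set of 2 is siNT. The labels list 1 co-transfection table each with the siFmr1 pcDNA samples (and siNT pcDNA), siMbnl1 pcDNA, siFmr1 nMBNL1 and siMbnl1 cMBNL1, and the tables are called by those names here. Set 2 of the siFmr1 pcDNA, siMbnl1 pcDNA and siMbnl1 cMBNL1 tables held identical reads in 100% of shared events. Set 2 of the siFmr1 nMBNL1 table held the reads of set 1 of the siFmr1 pcDNA table. If the set 2 shared by the siFmr1 pcDNA and siMbnl1 tables is siNT pcDNA, their set 1 is the treated group. Set 2 of the siFmr1 nMBNL1 table would then be siFmr1 pcDNA. The labels do not state this.

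In brain 1 member event was called in the authors' deposited tables, where calls were rare over all events as well. Cortex had 0 of 98 member events called against 0.989% of all events, hippocampus 0 of 120 against 0.233%, and cerebellum 1 of 110 against 0.146%. The first N2a experiment had 1 of 127 against 0.825%. The co-transfection tables had more, with 12 of 247 for siFmr1 pcDNA against 2.11% of all events, 15 of 276 for siMbnl1 pcDNA against 2.36%, 10 of 259 for siFmr1 nMBNL1 against 1.45% and 11 of 313 for siMbnl1 cMBNL1 against 2.35%. Those are 4.86%, 5.43%, 3.86% and 3.51% of the member events. Liver had 0 of 51 against 1.19%, muscle 2 of 59 against 1.36% and testis 2 of 74 against 0.69%.

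The sequences of 4 of these exons are shown because each was the widest called difference among the members in at least 1 table of brain or N2a cells. The Scn8a exon that was widest in the siFmr1 nMBNL1 table rested on 1 or 2 junction reads per library and is not shown. Each is given 5′ to 3′ along the mRNA with the skipped exon in capitals and 20 bases of the neighbouring exons in lower case, from the GRCm38 genome and the GENCODE M21 annotation. All 4 lie wholly in coding sequence, and their lengths of 93, 54, 30 and 69 bases are multiples of 3.
Map2, chr1:66431527-66431619, plus strand: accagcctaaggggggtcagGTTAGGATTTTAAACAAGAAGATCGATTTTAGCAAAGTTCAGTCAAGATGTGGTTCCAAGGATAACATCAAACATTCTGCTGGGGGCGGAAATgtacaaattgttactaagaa
Ank3, chr10:69920438-69920491, plus strand: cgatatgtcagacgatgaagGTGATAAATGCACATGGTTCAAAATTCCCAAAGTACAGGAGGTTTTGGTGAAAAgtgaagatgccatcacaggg
Nrxn2, chr19:6448255-6448284, plus strand: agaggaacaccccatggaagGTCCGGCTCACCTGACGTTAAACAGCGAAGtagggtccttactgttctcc
Spen, chr4:141480746-141480814, minus strand: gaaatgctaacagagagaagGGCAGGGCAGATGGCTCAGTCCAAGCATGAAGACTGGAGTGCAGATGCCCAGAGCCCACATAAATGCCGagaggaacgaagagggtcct

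The Map2 exon, number 12 of 15 in the transcript used, encodes a microtubule-binding repeat that Map2 isoforms carry or lack. In the authors' deposited table for siMbnl1 pcDNA its inclusion was 0.2, 0.381 and 0.188 in set 1 and 0.625, 0.694 and 0.623 in set 2 (FDR 1.75e-08). In that for siMbnl1 cMBNL1 it was 0.216, 0.284 and 0.264 in set 1, against the same set 2 (FDR 9.13e-11). The sets did not overlap in either table, on 32 to 103 junction reads per library. In that for siFmr1 pcDNA its inclusion was 0.542 to 0.864 in set 1 and it was not called. In brain the exon was mostly skipped, at 0.022 to 0.055 in cortex, 0.032 to 0.058 in hippocampus and 0.078 to 0.166 in cerebellum, and no brain table called it.

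The Ank3 exon was called in the first N2a experiment. In the authors' deposited table its inclusion was 0, 0.042 and 0.084 in siFmr1 and 0.129 and 0.525 in siNT (difference -0.285, FDR 0.022), on 5 to 18 junction reads per library. The siNT libraries differed from each other by more than the lower of them did from any siFmr1 library. The same exon was called in the authors' deposited table for siFmr1 pcDNA, with inclusion of 0.16, 0.112 and 0.14 in set 1 and 0 in all 3 libraries of set 2 (FDR 0.000303), on 6 to 41 reads. This difference, 0.137, had the opposite sign to that of the first N2a experiment. If set 2 is siNT pcDNA, inclusion was higher in siFmr1 pcDNA, where the first experiment had it lower in siFmr1. Another Ank3 event with this skipped exon was not called in either table. The Nrxn2 exon was called in the siFmr1 pcDNA and siMbnl1 pcDNA tables. In the authors' deposited table for siFmr1 pcDNA its inclusion was 0.454, 0.833 and 0.555 in set 1 and 0.854, 1 and 1 in set 2, on 2 to 12 reads. Another Nrxn2 event with the same skipped exon and other flanking exons was not called there. The Spen exon was the only called member event in brain. In the authors' deposited table for cerebellum its inclusion was 1 in all 3 libraries of set 1 and 0.538, 0.714 and 0.545 in set 2 (FDR 0.000298), on 3 to 17 reads.

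Map1a had the best covered of the called exons that the naming rule picked. This exon of 8104 bases, at chr2:121299269-121307372, holds most of the coding sequence. In the authors' deposited table for siFmr1 pcDNA its inclusion was 0.61, 0.732 and 0.666 in set 1 and 0.974, 1 and 0.97 in set 2 (FDR 0), on 224 to 483 reads. In the first N2a experiment it ran from 0.665 to 0.851 over both groups and was not called. Huwe1, in the siMbnl1 cMBNL1 table, had 0.441, 0.682 and 0.575 in set 1 and 0.26, 0.203 and 0.195 in set 2 for an exon of 134 bases (the authors' deposited table, FDR 2.13e-06). The other exons picked by the rule rested on fewer reads, except that of Camkk2 in testis. Scn8a and Cacna1a in the siFmr1 nMBNL1 table had 1 to 12 reads per library, Cacna1a and Nav1 in muscle 1 to 13 and Dlg4 in testis 4 to 13. The Camkk2 exon in testis had 47 to 94 reads, with 0.961, 0.857 and 0.924 in set 1 and 0.848, 0.638 and 0.636 in set 2 of the authors' deposited table (FDR 0.0276).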

How the data were processed

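Per the labels' protocols, RNA was extracted with TRIzol and poly(A) RNA was selected for the brain libraries. The submitters' processing notes name CASAVA, FastQC 0.11.8, Trimmomatic 0.39, Bowtie2 2.3.5, STAR 2.6.1, RSEM 1.3.1, DESeq2 1.16.1 and the builds GRCm38 and mm10, with no role or order. Brain, liver, muscle, testis and first N2a tables held read counts per gene as deposited, with the TPM values, log2 fold changes and p-values that the authors deposited beside them where a table had them. Co-transfection values are a signal, the authors' normalized counts, whose method is not given in the sources used here. They are not whole multiples of 1 unit per library. Skipped exon tables held deposited junction counts, FDR and an inclusion difference, a score by the authors. 4 per-sample columns of the muscle table that match no sample were not used.

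edgeR 4.0.16, DESeq2 1.42.0 and limma 3.58.1 were run under R 4.3.3, and pandas 2.3.3 under Python 3.11.15. Counts passing filterByExpr were scaled (TMM) and tested per tissue with edgeR's quasi-likelihood test, with BH adjustment over all genes tested. CPM use TMM-scaled library sizes. Normalized counts were tested with limma (trend) on log2(value + 1), all 15 libraries in 1 fit, so fold changes of low genes are understated. Total counts were 13230785 to 16168225 in liver, 13934559 to 15386794 in muscle, 13752391 to 15879775 in testis and 13273331 to 16268865 in the first N2a experiment. Scripts were tested on simulated data. Named genes were Fmr1, all members called (at most 12, otherwise the 6 of widest log2 fold change per direction), the 3 of smallest p where none was called, the most abundant member per role, the 4 widest called in other comparisons and the 2 widest called exons per table. The members, lists and tests were chosen with earlier results of these data known. Replicate numbers were not taken to pair the samples. Coding sequences and exons come from GENCODE M21 on GRCm38, 1 transcript per gene. Some genes of the marker and further target lists are not reported here, and the counts and sums leave them out.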

Additional observations from a re-analysis of the deposited data

How the results depend on the processing

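Of the counts and medians of members, 299 values under the alternatives kept their direction and stayed close, and 38 moved. The GC range and the combined ranges beside the members' medians were chosen after seeing the data. With DESeq2's Wald test 14 members were called in cortex, 2 in hippocampus, 1 in cerebellum and 1 in liver, and a fit of all 18 brain libraries called 16 in cortex, where edgeR called 0. With a minimum absolute log2 fold change of 0.5 the calls were 7 in siFmr1 pcDNA, 10 in siFmr1 nMBNL1, 8 in siMbnl1 pcDNA, 8 in siMbnl1 cMBNL1 and 1 for siFmr1 nMBNL1 against siFmr1 pcDNA. With only the compared groups in the fit they were 9 in siMbnl1 pcDNA, 9 in siMbnl1 cMBNL1 and 21 for siFmr1 nMBNL1 against siFmr1 pcDNA, which without the low-value filter gave 1. Called skipped exons numbered 26 at an inclusion difference of at least 0.2 and 35 at 20 or more junction reads per replicate. The cause was not tested.

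With 1 library left out, calls ranged from 0 to 14 in cortex (14 without WT 3), 0 to 3 in cerebellum (3 without WT 3), 0 to 1 in liver (1 without WT 1), 0 to 3 in muscle and 1 to 3 in testis (1 without WT 1). They ranged from 4 to 13 over the 3 regions (13 without cerebellum WT 3), 0 to 7 for cortex against hippocampus and 0 to 7 for cortex against cerebellum (7 without cortex WT 3 in both), 11 to 24 in siFmr1 pcDNA (24 without siNT pcDNA 2) and 0 to 2 for siFmr1 nMBNL1 against siFmr1 pcDNA. The members' median ranged from -0.0486 to 0.0056 in hippocampus and from 0.0531 to 0.4868 in the first N2a experiment. Fmr1, which is not targeted by siMbnl1, ranged from -0.1366 to 0.0407 in siMbnl1 pcDNA, and from -0.3303 to 0.0015 for siFmr1 nMBNL1 against siFmr1 pcDNA.

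With the replicate number as a block, 0 members were called in muscle and 1 for siFmr1 nMBNL1 against siFmr1 pcDNA, and no other count of members moved by more than 1.5 times. Replicate numbers in the labels were shared between groups. Same-numbered libraries of compared groups correlated from -0.75 to 0.77 in their deviations from the group means, and in none of 12 pairs of groups was every correlation above 0.1. Between regions of 1 genotype they ran from -0.37 to 0.42, and every one was above 0.1 in 1 of 6 pairs, hippocampus and cerebellum of KO mice (0.12 to 0.40). Whether same-numbered regions came from the same animal is not stated, and the numbers were not used as pairs.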
